A study of Schmidtea mediterranea with 24 samples.

Results

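CHAC1 is the name that the best protein match gives to the planarian gene SMED30026774, 1 of the 16575 genes measured in the freshwater planarian *Schmidtea mediterranea*. Whether the planarian gene is the ortholog of the human one was not tested. The gene was selected on its own mRNA and footprint values in these comparisons, which were already known, so its levels and changes are described here with their errors and without a test. All animals were asexual worms of the CIW4 strain, fed bacteria that made double-stranded RNA and collected at 48 hours post amputation as head, trunk and tail fragments. In the first arm *fbl-1* KD was compared with *egfp* KD, and in the second arm *fbl-2* KD with *egfp* 2x KD, which makes 4 groups in all, where *egfp* is a sequence that the worm does not carry. Both *fbl* genes code for homologs of fibrillarin, the methyltransferase that adds methyl groups to ribosomal RNA, and the food for *fbl-1* was more concentrated than that for *fbl-2*. Each group had 3 pools of worm fragments, numbered by replicate, and each lysate was split between RNA-seq, which measures mRNA, and Ribo-seq, which measures the mRNA fragments covered by ribosomes (footprints). RNAi acts on a transcript and leaves the gene in place, so it is not a deletion.

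In mammals CHAC1 is an enzyme of the cytosol that cleaves glutathione, the main thiol buffer of the cell, into 5-oxoproline and cysteinylglycine. Its gene is a target of ATF4, the transcription factor of the integrated stress response, in which phosphorylation of the initiation factor eIF2 lowers general translation while ATF4 itself is still translated. Other mammalian ATF4 targets are asparagine synthetase and many cytosolic aminoacyl-tRNA synthetases, the enzymes that load amino acids onto tRNA.

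The knockdown targets went against their labels. The reads of *fbl-1* mRNA were 134 ± 7.81 (SD, n = 3) in *egfp* KD and 1039 ± 319 (SD, n = 3) in the libraries labelled *fbl-1* KD. Likewise, *fbl-2* mRNA was 135 ± 8.50 (SD, n = 3) in *egfp* 2x KD and 745 ± 252 (SD, n = 3) in the libraries labelled *fbl-2* KD. Reads from the double-stranded RNA of the food and reads from the worm's own transcripts cannot be told apart in these values, so they check neither the knockdown nor the labels. The study also assayed the knockdowns by qPCR and in situ hybridisation, which were not analysed here, and every direction given below is that of the library labels. Deposited totals were 8762055 to 9549828 scaled reads for RNA-seq and 9116524 to 10763740 for Ribo-seq. A value is the number of reads of a gene multiplied by a factor set for each library, so that the depth behind it is not known exactly. In 7 of the 24 libraries at least 3 of the whole numbers up to 40 were held by no gene, as a factor well above 1 leaves them. The pools come from separate worms as far as the methods state, and each SD measures the spread between pools. Each SE comes from a limma fit, which draws the variance of a gene toward that of genes with similar values. An SE is therefore not the spread of CHAC1 alone. The pooled SD of CHAC1 on the log2 scale was 0.097 for mRNA and 0.32 for footprints in the *fbl-1* arm.

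CHAC1 mRNA stood higher in all the libraries labelled *fbl-1* KD. The 3 *egfp* KD libraries held 769, 683 and 646 scaled reads of CHAC1 mRNA, and the 3 libraries labelled *fbl-1* KD held 1873, 1811 and 1941. The groups did not overlap, and the lowest knockdown library was 2.36 times the highest control. The means were 699 ± 63.1 and 1875 ± 65.0 (SD, n = 3 each), a 2.68-fold difference and a log2 change of 1.42 (SE 0.11). Of all genes tested in this comparison, 11% stood higher in the knockdown with no overlap between groups, and the rule that chose CHAC1 used this contrast. In bulk tissue, more cells that express a gene and more RNA per cell cannot be told apart.

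**Figure D1:**
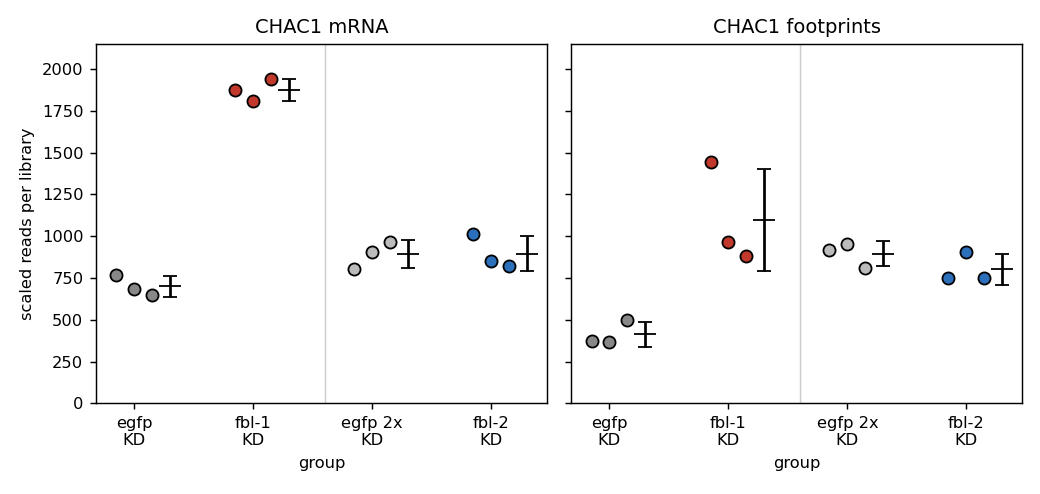
Scaled reads of CHAC1 per library, for mRNA (left) and ribosome footprints (right); each point is a library and the bars are the mean ± SD of 3. The libraries labelled *fbl-1* KD lie between 1811 and 1941 for mRNA and between 879 and 1444 for footprints, above their *egfp* KD controls in both assays, whereas *fbl-2* KD and *egfp* 2x KD overlap.

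Ribosome footprints on CHAC1 stood higher by a like amount. The columns egfp-1, egfp-2 and egfp-3 held 373, 365 and 497 scaled footprint reads, and the columns fbl-1_1, fbl-1_2 and fbl-1_3 held 1444, 965 and 879. Again no control reached the lowest knockdown library, which was 1.77 times the highest control, but the spread was wider than for mRNA. The means were 412 ± 74.0 and 1096 ± 304 (SD, n = 3 each), a 2.66-fold difference and a log2 change of 1.39 (SE 0.22). Groups were apart in this direction for 11.3% of the genes tested. The highest column of each group, egfp-3 and fbl-1_1, was also one in which 14 of the whole numbers up to 40 were held by no gene, against 0 to 2 in the other 4 columns. The part of this scaling in the spread was not tested. With both columns left out, a choice made after seeing the data, the log2 change was 1.32.

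In the libraries labelled *fbl-2* KD, CHAC1 overlapped its controls in both assays. Its mRNA was 804, 905 and 968 scaled reads in *egfp* 2x KD and 1015, 853 and 819 in the libraries labelled *fbl-2* KD. The ranges overlapped, and the means of 892 ± 82.7 and 896 ± 105 (SD, n = 3 each) gave a log2 change of 0.00 (SE 0.14). Its footprints were 920, 953 and 811 scaled reads in the columns egfp_2x_1, egfp_2x_2 and egfp_2x_3, and 748, 906 and 748 in fbl-2_1, fbl-2_2 and fbl-2_3. These groups overlapped as well, with means of 895 ± 74.3 and 801 ± 91.2 (SD, n = 3 each) and a log2 change of -0.16 (SE 0.15). Genes whose groups were apart made up 7.08% (higher) and 7.91% (lower) of those tested for mRNA, and 9.25% and 8.96% for footprints.

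Both control sets themselves held different levels of CHAC1. From the lowest to the highest group mean, CHAC1 mRNA followed the order *egfp* KD, *egfp* 2x KD, *fbl-2* KD and *fbl-1* KD. The neighbours *egfp* 2x KD and *fbl-2* KD overlapped in that order, and the other neighbours were apart. For footprints the order was *egfp* KD, *fbl-2* KD, *egfp* 2x KD and *fbl-1* KD, in which only the first neighbours were apart. From *egfp* KD to *egfp* 2x KD the log2 difference of CHAC1 was 0.35 for mRNA and 1.13 for footprints, whereas the median of 12074 genes was -0.02 and 0.02. As many as 3.93% of these genes differed at least as far upward for mRNA, and 4.07% for footprints. Set beside the *egfp* 2x KD controls in place of its own, *fbl-1* KD stood 2.10-fold higher for mRNA but 1.23-fold higher for footprints, where the ranges of 879 to 1444 and 811 to 953 overlapped. The tables of each arm were scaled separately by the study in a way not given in the sources used here, so these values set across arms are not matched comparisons. In all 3 *egfp* 2x KD footprint columns, 12 to 14 of the whole numbers up to 40 were held by no gene.

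**Figure D2:**
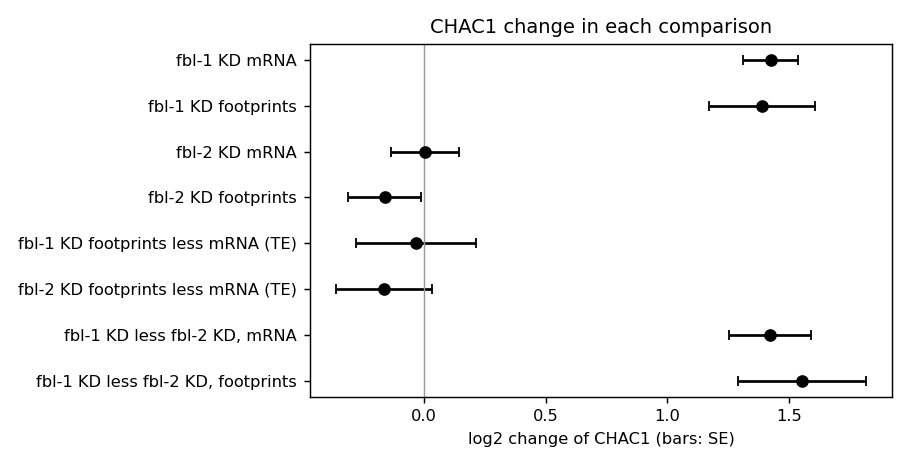
Log2 change of CHAC1 in each comparison, with bars of ± 1 SE; TE is the footprint change less the mRNA change, and the last 2 lines are the difference of both knockdowns. Both changes under *fbl-1* KD lie near 1.4, both under *fbl-2* KD near 0, and the SE of each TE change reaches across or close to 0.

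Translational efficiency (TE) is the number of footprints relative to mRNA, and its change is the footprint change less the mRNA change. The fit for TE did not pair both assays of a lysate. The TE change of CHAC1 was -0.03 (SE 0.25) on the log2 scale for the libraries labelled *fbl-1* KD and -0.17 (SE 0.20) for those labelled *fbl-2* KD. Footprints thus differed by about as much as mRNA in the first arm, within an error that leaves room for a TE change of either sign. No gene passed an adjusted p of 0.05 for TE in limma (0% of 12243 and 12364 genes tested). At an unadjusted p under 0.05 there were 266 higher and 342 lower in the *fbl-1* arm and 284 and 428 in the *fbl-2* arm. With no TE change at all, a share of about 0.05 of the genes tested would pass that threshold, so these counts are not read as TE changes. The change under *fbl-1* KD less that under *fbl-2* KD was 1.42 (SE 0.17) for CHAC1 mRNA and 1.55 (SE 0.26) for its footprints. These differences take in that of the control sets, in which *egfp* 2x KD stood above *egfp* KD by 0.35 for mRNA and 1.13 for footprints. The footprint ranges of both knockdowns, 879 to 1444 for *fbl-1* KD and 748 to 906 for *fbl-2* KD, overlapped.

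Among all genes, the mRNA change of CHAC1 under *fbl-1* KD was the 20th highest of 12965 tested, and its footprint change the 307th of 12503. Of the 1494 genes tested with a mean mRNA value of at least that of CHAC1, 4 had a change at least as high, which are CHAC1, the isoleucyl-tRNA synthetase IARS, the match of the ubiquitin ligase ARIH1 and a gene with no name. For footprints there were 6 of 2714, CHAC1 and ARIH1 again among them, so that nearly all of the higher footprint changes belonged to genes with fewer reads than CHAC1. The corresponding places in the libraries labelled *fbl-2* KD were 6445th of 12958 for mRNA and 8487th of 12612 for footprints, close to the middle of all genes. By level, 77.7% of the genes tested had a lower mean than CHAC1 mRNA in *egfp* KD, and 93.0% in *fbl-1* KD. For footprints these shares were 63.2% and 84.7%. The share depends on transcript length, since reads were not divided by it.

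**Figure D3:**
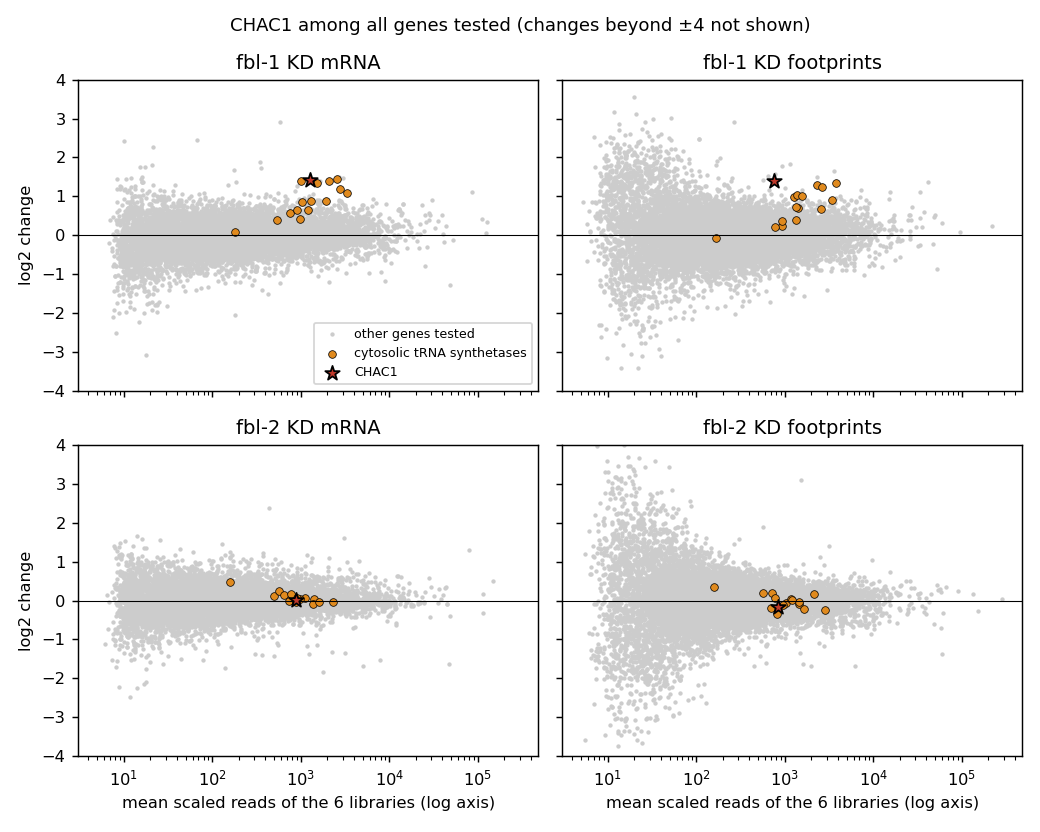
Log2 change against the mean scaled reads of the 6 libraries (log axis) for every gene tested, in each arm and assay; the star is CHAC1 and the orange points are the cytosolic aminoacyl-tRNA synthetases. Under *fbl-1* KD the star lies at the upper edge of genes with similar reads, 20th of 12965 for mRNA, and under *fbl-2* KD it lies near 0.

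The genes whose values moved most like those of CHAC1 were looked for over the 24 libraries, each value taken on the log2 scale relative to its own controls. The likeness is a description: the points share their libraries and controls, and footprints and mRNA come from the same lysates. The 6 named genes with the highest Pearson correlation among 12073 genes were TARS (SMED30015942), with r of 0.979, QARS with 0.970, BRF1 with 0.950, SLC9A2 with 0.944, RARS with 0.933 and SLC17A5 with 0.933. They were also the 6 highest of all genes, named or not, and the median r was 0.00. TARS, QARS and RARS load threonine, glutamine and arginine onto tRNA. BRF1 is in human a subunit of the factor that places RNA polymerase III on tRNA genes, SLC9A2 exchanges sodium for protons at the cell surface, and SLC17A5 carries sialic acid out of lysosomes.

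TARS mRNA was 2123 ± 104 scaled reads in *egfp* KD and 4478 ± 87.8 in *fbl-1* KD (SD, n = 3 each), a log2 change of 1.08. SLC9A2 mRNA was 530.0 ± 53.7 and 1271 ± 134, a log2 change of 1.26, and it had the highest footprint change of the 6, at 1.53 (SE 0.19). BRF1, with mRNA of 2271 ± 62.4 and 3920 ± 248, had the lowest changes, 0.79 for mRNA and 0.65 (SE 0.23) for footprints. CHAC1 thus had the highest mRNA change of this group, followed by QARS at 1.39, which is less than 1 SE away. In the libraries labelled *fbl-2* KD, the mRNA changes of the 6 lay between -0.08 and 0.06 and the footprint changes between -0.34 and -0.02. Among the 100 genes most like CHAC1, out of 12073 ranked, 11 of the 15 cytosolic synthetases were found, and 12 when mRNA libraries alone were used. The ranking used the values for which CHAC1 was chosen. Changes like those of CHAC1 therefore follow from the ranking and are no further evidence. Names were at hand for 72 of these 100 genes and come from tables that the study had sorted by change, so named genes are not an even sample.

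**Figure D4:**
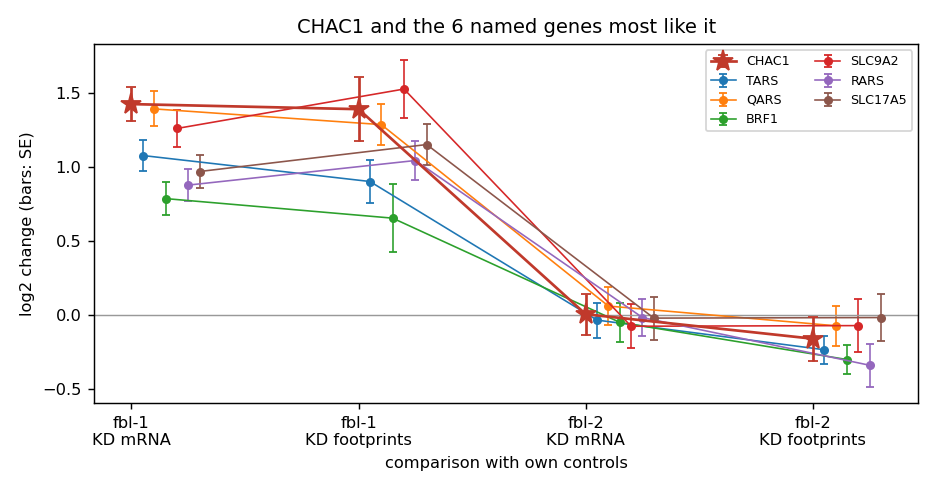
Log2 change (± 1 SE) of CHAC1 and of the 6 named genes most like it in the 4 comparisons, each against its own controls; lines only join the values of a gene. All 7 lie between 0.65 and 1.53 under *fbl-1* KD and between -0.34 and 0.06 under *fbl-2* KD.

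Most aminoacyl-tRNA synthetases of the cytosol rose in the libraries labelled *fbl-1* KD. This list, like those below, was chosen with earlier results of these data known. Of 15 tested, 13 rose and 0 fell in mRNA by limma with Benjamini-Hochberg adjusted p under 0.05, where 2.59% of all genes tested rose, and the 2 others were YARS at a log2 change of 0.40 (adjusted p = 0.122) and the second TARS match, SMED30035804, at 0.09 (adjusted p = 0.789). The median log2 change of the list was 0.88, against -0.01 for all genes tested. IARS rose from 1380 ± 125 to 3749 ± 254 scaled reads (log2 change 1.44, adjusted p = 2.7e-06). QARS rose from 1153 ± 143 to 3017 ± 193 (1.39, adjusted p = 5.75e-06), MARS from 865 ± 101 to 2172 ± 81.2 (1.33, adjusted p = 6.54e-06) and AARS from 1682 ± 27.2 to 3822 ± 195 (1.18, adjusted p = 1.01e-05), with n = 3 in each group. These 4, which load isoleucine, glutamine, methionine and alanine, had changes close to the 1.42 of CHAC1. At an unadjusted p under 0.05 there were 14 higher and 0 lower. For this list and those below, each share of all genes is that at the adjusted threshold. It is no background for the unadjusted counts. Leaving out any 1 library gave 11 or 12 calls, and a fit without a trend of variance on mean gave 8.

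In footprints, 7 of the 15 synthetases rose and 0 fell at an adjusted p under 0.05 in limma, where 0.384% of all genes rose. At an unadjusted p under 0.05, for which that share does not hold, there were 12 higher and 0 lower. IARS went from 2136 ± 242 to 5378 ± 458 scaled reads (log2 change 1.33, adjusted p = 0.00812), QARS from 1352 ± 148 to 3294 ± 281 (1.29, adjusted p = 0.00812), AARS from 1573 ± 238 to 3676 ± 364 (1.23, adjusted p = 0.0122) and RARS from 913 ± 88.4 to 1878 ± 40.5 (1.04, adjusted p = 0.0124), n = 3 each. The footprint median was 0.74, against 0.02 for all genes. This count rested on single libraries: it was 0 without egfp-1, 0 without fbl-1_3, 3 without egfp-2 and 2 without fbl-1_2, and in those fits the adjusted p of these 4 genes reached at most 0.0862. With no trend of variance on mean it was 0.

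In the libraries labelled *fbl-2* KD, 0 of the 15 synthetases passed the limma test in either direction or assay, where 0.162% of all genes rose and 0.201% fell in mRNA, and 1.17% rose and 1.96% fell in footprints. At an unadjusted p under 0.05 there was 1 higher in mRNA and 2 lower in footprints. Tested directly, the change under *fbl-1* KD exceeded that under *fbl-2* KD for 8 of 15 synthetases in mRNA (0.128% of all genes higher and 0.0302% lower) and for 5 of 15 in footprints (0.0763% and 0.0305%). The mRNA count was 5 without *egfp* KD pool 3, *fbl-1* KD pool 1, *fbl-1* KD pool 3 or *egfp* 2x KD pool 1 and up to 7 without another library, and the footprint count ranged from 4 to 6. The difference was 1.40 for IARS mRNA (adjusted p = 0.000474), and 1.39 for RARS footprints (adjusted p = 0.00284).

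Apart from the synthetases, 6 matches of genes linked to ATF4 in mammals were listed. All moved less than CHAC1 under the *fbl-1* KD label, and 1 of the 6, SHMT2, stood lower. Of 6, 3 rose and 0 fell in mRNA under the *fbl-1* KD label (5 and 1 at an unadjusted p under 0.05), where 2.59% of all genes rose and 2.45% fell. The list median was 0.59, against -0.01 for all genes tested. XPOT, the exporter of tRNA from the nucleus, rose from 734 ± 100.1 to 1090.3 ± 32.5 (log2 change 0.58, adjusted p = 0.013), and SQSTM1, an autophagy receptor, from 274 ± 21.0 to 416 ± 24 (0.60, adjusted p = 0.0161), n = 3 each. There were 2 matches of asparagine synthetase, ASNS. SMED30014191 rose from 327 ± 29.2 to 498 ± 96.0 (0.59, adjusted p = 0.0341), and SMED30007463 did not pass, at 138 ± 25.1 and 220 ± 44.0 (0.66, adjusted p = 0.0571). The count of 3 was 1 without *egfp* KD pool 3 or *fbl-1* KD pool 1 and 0 without *fbl-1* KD pool 3, and the ASNS call was also lost without *egfp* KD pool 1, *egfp* KD pool 2 or *fbl-1* KD pool 2 (adjusted p at most 0.135). SHMT2 mRNA was 259 ± 51.9 in *egfp* KD and 170 ± 32.3 in *fbl-1* KD, and did not pass (-0.61, adjusted p = 0.0776). Its footprints stood at -0.52 (adjusted p = 0.357). Without *egfp* KD pool 1, 1 of the 6, SHMT2, fell in mRNA. In footprints 0 of 6 passed in limma, with 3 higher and 0 lower at an unadjusted p under 0.05, and ASNS stood at 0.59 (adjusted p = 0.221) and 0.81 (adjusted p = 0.288). Under the *fbl-2* KD label 0 of 6 passed in either assay (unadjusted: 2 higher and 1 lower in mRNA, 0 and 0 in footprints), and ASNS mRNA stood at 0.46 (adjusted p = 0.465) for SMED30014191 and -0.01 (adjusted p = 0.991) for SMED30007463.

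The eIF2 complex delivers the initiator tRNA to the ribosome, and eIF2B reloads it. Of 6 subunit matches, 2 rose and 1 fell in mRNA under the *fbl-1* KD label, where 2.59% of all genes rose and 2.45% fell. EIF2S3 rose from 783 ± 44.5 to 1381 ± 68.8 scaled reads (log2 change 0.82, adjusted p = 0.000483) and EIF2S1 (SMED30028363) from 149 ± 11 to 311 ± 14 (1.06, adjusted p = 0.000622), n = 3 each, and both passed without any 1 library. EIF2B1 fell from 107 ± 12.7 to 60.7 ± 12.2 (-0.82, adjusted p = 0.0471), a call that was lost without any 1 of the 6 libraries (adjusted p up to 0.205). In footprints SMED30028363 alone of the 6 rose, where 0.384% of all genes rose, from 148 ± 3.79 to 309 ± 32.4 (1.06, adjusted p = 0.0481). It passed only when no library or egfp-3 was left out (adjusted p up to 0.241). The second EIF2S1 match, SMED30001987, did not pass. Its mRNA stood at 336 ± 12.3 and 431 ± 32.6 (0.36, adjusted p = 0.127), and its footprints at 466 ± 71.9 and 478 ± 21.0 (0.05, adjusted p = 0.92). Under the *fbl-2* KD label 0 of 6 passed, and 0 of 6 had an unadjusted p under 0.05 in either assay.

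None of the tested genes that make, use or recycle glutathione passed as higher beside CHAC1. Of 9 genes listed, 8 were tested in mRNA under the *fbl-1* KD label, of which 0 rose and 2 fell (0 and 3 at an unadjusted p under 0.05), where 2.45% of all genes fell. GCLC, the catalytic subunit of the enzyme of the first and limiting step of glutathione synthesis, fell from 843 ± 115 to 579 ± 23.6 scaled reads (log2 change -0.53, adjusted p = 0.0231), and GSTZ1, a glutathione transferase of tyrosine breakdown, fell from 232 ± 25 to 146 ± 15.7 (-0.67, adjusted p = 0.0285), n = 3 each. Both calls were lost without *egfp* KD pool 3, *fbl-1* KD pool 1 or *fbl-1* KD pool 3, and that of GSTZ1 also without *egfp* KD pool 1 (adjusted p at most 0.144). GSR, which reduces oxidised glutathione, did not pass, at 210.3 ± 15.5 and 140 ± 27.2 (-0.60, adjusted p = 0.0612). GGCT, a cyclotransferase of the gamma-glutamyl cycle, had only 7 ± 3.61 and 9 ± 7.21 scaled reads (adjusted p = 0.994), close to the minimum for a test. The remaining tested members stood higher without passing: GGTLC1 at 0.76 (adjusted p = 0.331), SPAC3H1.10 at 0.41 (adjusted p = 0.247), PCS2 at 0.13 (adjusted p = 0.767) and SLC1A1 at 0.05 (adjusted p = 0.887). The median of the list was 0.02.

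In footprints GSTZ1 fell from 324 ± 41.1 to 150 ± 4.73 (-1.10, adjusted p = 0.0435), 1 of 7 glutathione genes tested, where 0.488% of all genes fell. Its call was lost without any library other than egfp-3 (adjusted p up to 0.194). GCLC stood at -0.56 (adjusted p = 0.118) and GSR at -0.84 (adjusted p = 0.323). Higher without passing were GGTLC1 at 1.14 (adjusted p = 0.454) and SPAC3H1.10 at 0.04 (adjusted p = 0.963). SLC1A1 stood at -0.51 (adjusted p = 0.399) and PCS2 at -0.29 (adjusted p = 0.669). Under the *fbl-2* KD label 0 of 7 passed in limma in either assay (unadjusted: 1 higher and 2 lower in mRNA, 0 and 1 in footprints). GCLC mRNA stood at -0.27 (adjusted p = 0.508) and GSR mRNA at -0.49 (adjusted p = 0.325) there.

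Among other antioxidant enzymes, 0 of 7 tested rose and 2 fell in mRNA under the *fbl-1* KD label (1 and 2 at an unadjusted p under 0.05), where 2.59% of all genes rose and 2.45% fell. A catalase match that breaks down hydrogen peroxide, CAT (SMED30033774), fell from 6745 ± 816 to 4528 ± 362 (-0.57, adjusted p = 0.0165), and PRDX2, a peroxiredoxin, from 708 ± 63.6 to 481 ± 53.3 (-0.56, adjusted p = 0.0195), n = 3 each. Both were lost without *egfp* KD pool 3 or *fbl-1* KD pool 1, and CAT also without *fbl-1* KD pool 3 (adjusted p at most 0.122). The 1 higher gene at the unadjusted threshold, TXNRD3, did not pass in limma (log2 change 0.36, adjusted p = 0.103). Its footprints stood at -0.01 (adjusted p = 0.98). The second CAT match, SMED30010507, stood higher with few reads, at 33 and 47.7 in mRNA (0.50, adjusted p = 0.42). In footprints this second match stood at 0.65 (adjusted p = 0.395), and it passed in neither assay. In footprints PRDX2 fell from 725 ± 151 to 339 ± 13.0 (-1.07, adjusted p = 0.0346), where 0.488% of all genes fell, and its call was lost without any column other than egfp-3 (adjusted p up to 0.221). With egfp-3 left out, 2 of 7 fell. Under the *fbl-2* KD label 0 of 7 passed (unadjusted: 0 higher and 1 lower in mRNA, 1 higher and 4 lower in footprints), but 3 of 7 fell in footprints without the column fbl-2_2 and 1 without fbl-2_3.

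Genes of protein folding and entry into the endoplasmic reticulum (ER), which rise in mammals when unfolded proteins build up there, did not move with CHAC1 as a list. Of 8 tested, 1 rose and 2 fell in mRNA under the *fbl-1* KD label, where 2.59% and 2.45% of all genes did. The list median was -0.24, against -0.01 for all genes tested. SEC61B and SEC61A2, subunits of the channel into the ER, fell from 175 ± 34.6 to 83 ± 11.5 (-1.05, adjusted p = 0.00751) and by 0.55 on the log2 scale (adjusted p = 0.0228). The match of a fission yeast protein disulfide isomerase, SPAC17H9.14c, rose from 104 ± 8.54 to 179 ± 42.2 (0.75, adjusted p = 0.0436), n = 3 each. SEC61B passed without any 1 library, whereas the calls of SEC61A2 and SPAC17H9.14c were lost without *egfp* KD pool 3, *fbl-1* KD pool 1 or *fbl-1* KD pool 3, of SEC61A2 also without *fbl-1* KD pool 2 and of SPAC17H9.14c without *egfp* KD pool 1 (adjusted p at most 0.205). HSPA5, the main chaperone of the ER, did not pass, at -0.25 (adjusted p = 0.298). In footprints 0 of 8 passed (unadjusted: 1 higher and 1 lower). Under the *fbl-2* KD label 2 of 8 fell in footprints, where 1.96% of all genes fell, HSPA5 by 0.59 on the log2 scale (adjusted p = 4.62e-05) and SEC61A2 by 0.45 (adjusted p = 0.000561), both also without any 1 library, and 0 of 8 passed in mRNA (unadjusted: 0 higher and 3 lower).

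**Figure D5:**
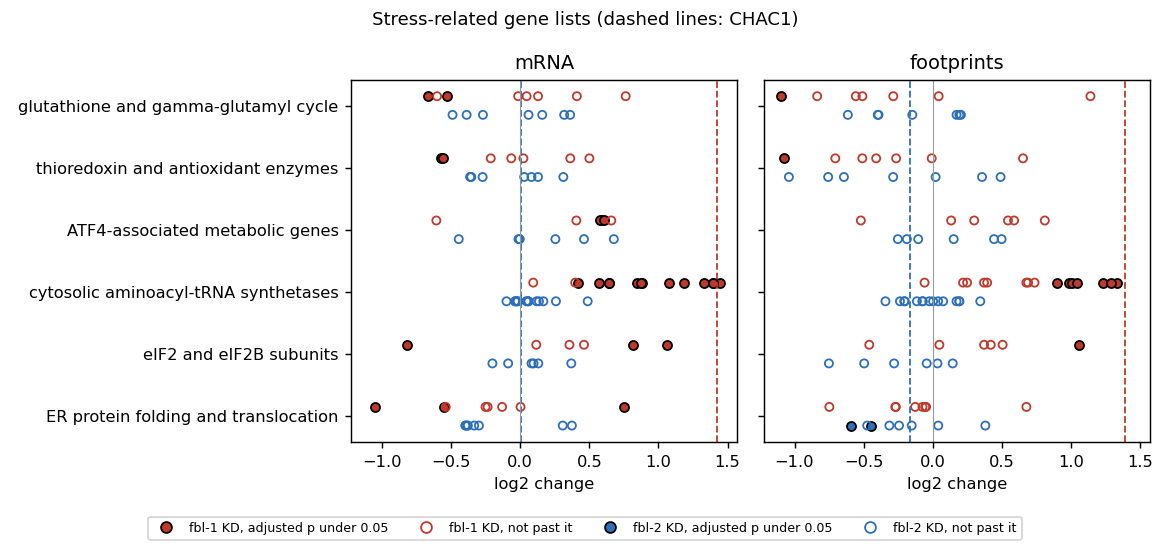
Log2 change of each tested member of the 6 gene lists, for mRNA (left) and footprints (right); filled points have an adjusted p under 0.05, and dashed lines mark CHAC1. The synthetases reach the level of CHAC1 under *fbl-1* KD, with 13 of 15 filled in mRNA and 7 of 15 in footprints, whereas no gene of the glutathione list is filled to the right of 0.

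CHAC1 carries the labels Cathepsin+ cell, Parapharyngeal and Pharynx in gene tables of the study, which place genes in cell types from single-cell data. Of 12 other genes with all 3 labels, 5 rose and 0 fell in mRNA under the *fbl-1* KD label, with a median log2 change of 0.51, whereas CHAC1 stood at 1.42. Over all 2773 named or labelled genes tested, 299 rose and 189 fell with a median of 0.26, and these come from tables sorted by change. The medians were 0.32 for Cathepsin+ cell, 0.40 for Parapharyngeal and 0.38 for Pharynx. Labels that CHAC1 does not carry had medians in the same range, 0.35 for Epidermal, 0.36 for Neural and 0.38 for Protonephridia, or lower, 0.16 for Muscle, 0.07 for Intestine and -0.20 for Neoblast, the planarian stem cells. Under the *fbl-2* KD label the medians of the 3 labels of CHAC1 were 0.16, 0.30 and 0.31, where CHAC1 stood at 0.00. The stem cell marker piwi-1 ranged from 12299 to 13971 scaled mRNA reads in *egfp* KD and from 7534 to 8794 in *fbl-1* KD. The other stem cell markers, MCM2 and vasa-1, were also lower without overlap, at 569 to 616 against 753 to 856 for MCM2 and 3427 to 3835 against 4491 to 5282 for vasa-1. Of the 3 epidermal markers, prog-1 was lower (629 to 696 against 791 to 1309), and AGAT-1 (1890 to 2066 against 1673 to 1875) and egr-5 (305 to 331 against 207 to 242) were higher in *fbl-1* KD. Of all genes tested in this comparison, 12.7% stood lower and 11% higher with no overlap between groups. In footprints piwi-1, MCM2, vasa-1 and prog-1 were again lower without overlap, as were 12.5% of all genes tested. The footprints of AGAT-1 (3062 to 4052 against 3295 to 4214) and egr-5 (550 to 618 against 520 to 573) overlapped their controls. None of these 6 markers was at or near 0 in any group. The part of cell composition in the CHAC1 change was not tested.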

How the data were processed

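RNA-seq (12 libraries) and Ribo-seq (12 libraries) of 4 groups with 3 replicates each were analysed. The authors trimmed reads with Cutadapt and Sickle, removed rRNA reads, aligned with Tophat2 to the reference transcriptome and counted unique reads per gene with featureCounts. The values deposited by the authors are signal values, whole numbers that are reads scaled by 1 factor per library, and how that factor was set is not given in the sources used here. RNA-seq columns were matched to samples by label, and Ribo-seq columns to groups only. The number of value columns left out was 0, and 0 pairs of libraries held identical values. Genes with a value of at least 10 in at least 3 libraries of a comparison were tested on log2(value + 1) with limma-trend (limma 3.58.1, R 4.3.3), the 2 groups of a comparison alone, with Benjamini-Hochberg adjustment across every gene of the comparison at 0.05. Fold changes on this scale understate changes of genes with low values. TE and the difference of both knockdowns were tested as interactions. The RNA-seq and Ribo-seq libraries of a lysate were not paired in the TE fits. The fit was tested on simulated data. CHAC1 and the 6 gene lists were chosen with earlier results of these data known.

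Gene names come from the study's tables of best matches (2529 of 16575 genes). Genes named are CHAC1, the targets, up to 4 called members per list and comparison by smallest p, GGCT, GCLC, GSR and ASNS always, and the 6 named genes most like CHAC1. YARS, SHMT2, TXNRD3, HSPA5, ARIH1, GGTLC1, SPAC3H1.10, PCS2, SLC1A1 and the second matches of TARS, EIF2S1 and CAT were named after their values were seen. Alternatives were a pseudocount of 5, no filter, no mean trend, other scalings, a replicate block, all 4 groups in one fit and leaving out each library. No sequence is shown.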

Additional observations from a re-analysis of the deposited data

Results flagged for a closer look

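These genes changed differently under the labels *fbl-1* KD and *fbl-2* KD when the difference itself was tested with limma (Benjamini-Hochberg adjusted p under 0.05); values are the log2 change under *fbl-1* KD less that under *fbl-2* KD. In mRNA the difference was 1.37 for MARS (adjusted p = 0.000474), 1.40 for IARS (0.000474), 1.21 for AARS (0.000537) and 1.33 for QARS (0.000742), and each passed without any 1 of the 12 libraries. It was 1.15 for EIF2S1 (SMED30028363, adjusted p = 0.0232), which passed in 2 of 12 fits with a library left out. Those were the fits without *egfp* 2x KD replicate 3 or *fbl-2* KD replicate 3 (adjusted p up to 0.0953 in the others). In footprints it was 1.39 for RARS (adjusted p = 0.00284), 1.14 for TARS (0.00697) and 1.36 for QARS (0.00697), which passed without any 1 column, and 1.16 for IARS (0.00712), lost without the column fbl-2_3 (0.0506).

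The targets themselves also differed, each being higher under its own label: 2.58 for *fbl-1* mRNA (adjusted p = 0.000474), -2.23 for *fbl-2* mRNA (0.00331) and -3.31 for *fbl-2* footprints (9.88e-05).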

How the results depend on the processing

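The 121 alternative values of the CHAC1 changes, other than that without 2 footprint columns given above, moved by less than the spread between replicates. For most of them this was fixed in advance. Leaving out 1 of 3 libraries cannot move a difference of group means by as much as the pooled SD. The fits with no filter, no mean trend, a replicate block or all 4 groups keep the same group means. Only the other pseudocount and scalings could have moved a value further. With 1 library left out, the log2 change of CHAC1 ranged from 1.37 to 1.50 (*fbl-1* KD mRNA), 1.17 to 1.53 (*fbl-1* KD footprints), -0.09 to 0.06 (*fbl-2* KD mRNA), -0.25 to -0.12 (*fbl-2* KD footprints), -0.25 to 0.11 (TE, *fbl-1* KD), -0.26 to -0.07 (TE, *fbl-2* KD), 1.36 to 1.51 (difference of both knockdowns, mRNA) and 1.34 to 1.70 (the same, footprints). Counts of genes past the threshold were less stable. For *fbl-1* KD mRNA, *fbl-1* KD footprints, *fbl-2* KD mRNA and *fbl-2* KD footprints, they were 654, 109, 47 and 394. Without a trend of variance on mean they were 49, 0, 2 and 2. With all 4 groups in one fit they were 428, 105 and 174 for the last 3. With 1 library left out they ranged from 182 to 838, 0 to 172, 13 to 91 and 187 to 559, and for TE from 0 to 0 (*fbl-1* KD) and 0 to 10 (*fbl-2* KD). The cause was not tested, other than that fewer samples enter some fits. Of 323 other list and difference counts under alternatives, 33 moved by over 1.5 times, and of 312 with a library left out, 58 did.

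No pairing by replicate number was seen: same-numbered libraries correlated in their deviations at 0.05, -0.14 and -0.09 (*fbl-1* arm) and -0.15, -0.39 and -0.30 (*fbl-2* arm), none above 0.1. Between different numbers the correlations ranged from -0.16 to 0.24 (*fbl-1* arm) and from -0.07 to 0.32 (*fbl-2* arm). With 3 libraries a group, each taken relative to its group mean, these values cannot settle whether samples were paired. A fit with the replicate number as a block called 413 genes for *fbl-1* KD mRNA and 13 for *fbl-2* KD mRNA, and left CHAC1 at 1.42 (SE 0.13) and 0.00 (SE 0.19). Footprint columns are numbered, but their headers do not name a Ribo-seq sample and were matched to groups only, so no block was fitted there. With 3 pools a group and an unknown scaling factor, differences as small as that of CHAC1 under *fbl-2* KD were not detectable.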
